A study of Saccharomyces cerevisiae with 6 samples.

Results

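Chromosome XII genes beyond the ribosomal DNA are described here, the stretch of the right arm that runs from the ribosomal repeats to the right telomere. Members were taken by systematic name, as the YLR open reading frames numbered from YLR155C upwards, without SWI6, MID2, FKS1 and IMD3. That gave 321 of the 6388 genes in the authors' deposited tables. They were set against 226 genes of the same chromosome before the ribosomal DNA and 5809 genes of the other chromosomes. The region was taken up because its ratios stood high on these same arrays in both phases, so the height of the shift is given as a description, with no test.

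The ribosomal DNA is a tandem array of ribosomal RNA genes on the right arm of chromosome XII, and the nucleolus forms around it. Budding yeast is known to tolerate the gain of single chromosomes, and in strains that carry such a gain the transcripts of most genes on the extra chromosome roughly follow their copy number. The genes beyond the ribosomal DNA include ribosomal protein genes, cell wall genes, replication and vesicle traffic genes, and, at the end, the repeated families of the subtelomere.

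The tested strain was EKD-13, a recombinant derivative of the wine yeast EC1118 that lacks both copies of KNR4, and the wild type was EC1118 itself. KNR4, also named SMI1, encodes a regulator of cell wall synthesis. Both strains fermented 1 L of the synthetic medium MS300 at 28 °C and were sampled in stationary phase, at 70 g of released CO2, or in mid-exponential phase, at 10 g. Each of 6 two-colour spotted arrays held cDNA of a mutant and a wild-type vessel of the same phase, 3 arrays per phase, and array 2 of each phase had its dyes swapped, the mutant there being in Cy3 and otherwise in Cy5. EKD-13 is a single named strain, so the KNR4 deletion and any other difference between it and EC1118 cannot be told apart. No DNA was measured.

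Every value below is a log2 ratio of EKD-13 over EC1118, so a positive value means more transcript in the mutant. KNR4 itself had a ratio on 1 array, mid-exponential array 3, where it was -4.51. The authors' deposited table lists KNR4 at -1.74 in stationary phase and -1.89 in mid-exponential phase. On a given array 53.1 to 85.6% of the 15488 spots carried a ratio, fewer on the stationary arrays. Precision is limited by the 3 arrays per phase.

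Of the 321 members, 219 are verified genes, 53 uncharacterized, 42 dubious and 7 parts of retrotransposons. A ratio was used for 292 members. Another 17 had none on any array, and 12 lay in plate wells whose names could not be relied on. The tests needed 2 or more measured arrays in both phases, which kept 205 members, 142 of them with a ratio on all 6 arrays. The 116 members not tested were dimmer: their median mean log2 intensity was 6.95 in stationary and 7.17 in mid-exponential phase, against 7.88 and 8.68 for the tested members. All counts below are of tested members unless stated.

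The region stood above the rest of the genome on each of the 6 arrays. In stationary phase the median of the members was 0.64, 0.52 and 0.98 on arrays 1, 2 and 3, against 0.00, -0.08 and -0.02 for the genes of the other chromosomes. In mid-exponential phase the members had medians of 0.61, 0.73 and 0.63, against -0.03, -0.08 and -0.04. The shift, the first median minus the second, was 0.75 ± 0.22 in stationary phase and 0.71 ± 0.09 in mid-exponential phase (SD, n = 3 arrays each), or 1.68-fold and 1.63-fold. Stationary array 3 was the high one, at 1.00, and the other 5 arrays lay between 0.61 and 0.81.

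**Figure D1:**
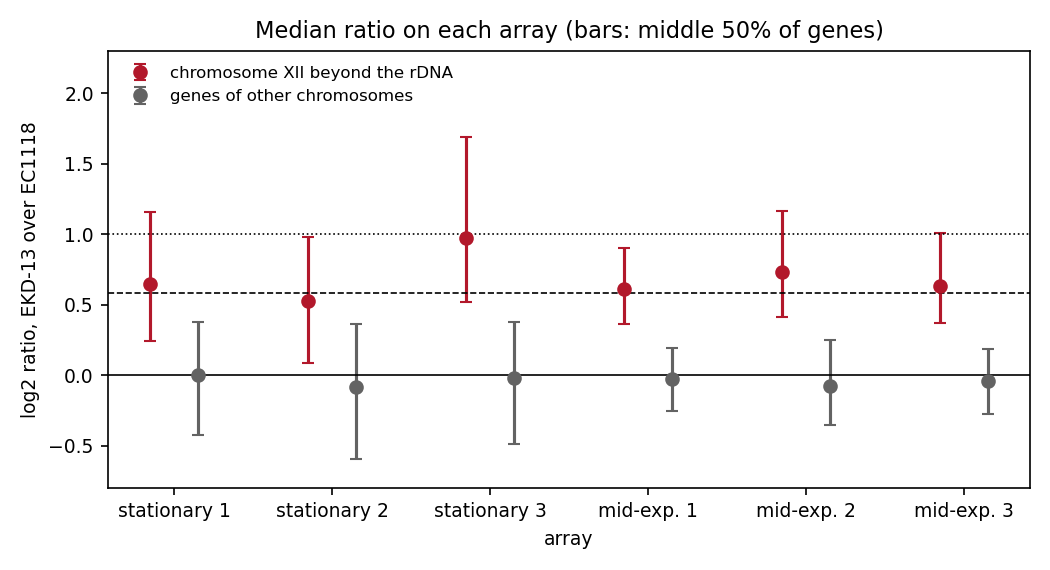
Median log2 ratio of EKD-13 over EC1118 on each array for the members (red) and for genes of other chromosomes (grey). Bars span the middle 50% of the genes, and horizontal lines stand at 0, at the ratio of 3 copies over 2 (0.585, dashed) and of 4 over 2 (1, dotted). The members' medians lie between 0.52 and 0.98 and the others' between -0.08 and 0.00.

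For scale, 3 copies against 2 give a log2 ratio of 0.585 and 4 against 2 give 1, if transcripts follow copies exactly. The shift lay 0.16 above the ratio of 3 copies to 2 in stationary phase, less than its SD of 0.22 over arrays, and 0.12 above it in mid-exponential phase, more than its SD of 0.09. Relative to the ratio of 4 copies to 2 it stood at -0.25 and -0.29, although stationary array 3 was at that ratio. Copy number was not tested, and the size of the shift depended on the intensity of the spots, as given further on.

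Members were spread widely around the shift, about as widely as the genes of other chromosomes around theirs. The SD over genes was 0.79 for members and 0.73 for other chromosomes in stationary phase. In mid-exponential phase it was 0.46 and 0.45. In stationary phase the members' median was 0.78, with the middle 50% between 0.37 and 1.22, and 187 of 205 were above 0. The mid-exponential median was 0.70, with the middle 50% between 0.46 and 0.97, and 196 of 205 were above 0. Over all 4262 tested genes the medians were -0.02 and -0.01, with 2072 and 2046 genes above 0. In stationary phase 18 members were at or under 0, 60 lay between 0 and 0.585, 53 between 0.585 and 1, and 74 over 1. The mid-exponential counts were 9, 71, 81 and 44. Of the genes of other chromosomes, 12.4% in stationary and 6.25% in mid-exponential phase were over 0.585.

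The authors' deposited table holds a value for all 321 members, dim ones included. It lists 297 of them above 0 in stationary phase and 298 in mid-exponential phase, against 48.8% and 40.8% of the genes of other chromosomes. The sizes in the authors' deposited table were smaller, with member medians of 0.19 and 0.32. Among the 142 members with a ratio on every array, 74 were above 0 on all 6 and none was below 0 on all 6. Of 2735 such genes on other chromosomes, 125 (4.57%) were above and 252 (9.21%) below on all 6.

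The genes before the ribosomal DNA stood as high. Their shift was 0.68 ± 0.23 in stationary phase and 0.73 ± 0.15 in mid-exponential phase (SD, n = 3 arrays each). The members' median minus theirs was 0.07 ± 0.01 in stationary phase, positive on all 3 arrays, and -0.02 ± 0.07 in mid-exponential phase, where the sign differed between arrays. The 30 chromosome arms other than the arms of chromosome XII had medians between -0.26 and 0.22 in stationary phase and between -0.15 and 0.07 in mid-exponential phase. Both stretches of chromosome XII lay above that range.

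Along the stretch the ratios stayed high to near its end. The 194 members with a place in the reference gene order were cut into 8 blocks of 24 or 25 genes. All 48 block medians, 8 blocks on 6 arrays, were above the median of the other chromosomes of their array, by 0.17 to 1.64. In stationary phase the block means ran from 0.59 (NOP56 to CDC42) to 1.09 (NAM2 to MAG2), and in mid-exponential phase from 0.58 (NOP56 to CDC42) to 0.85 (YLR157C-B to NMT1). The highest stationary block had an SD of 0.48, since it was 0.81 and 0.82 on arrays 1 and 2 and 1.64 on array 3.

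**Figure D2:**
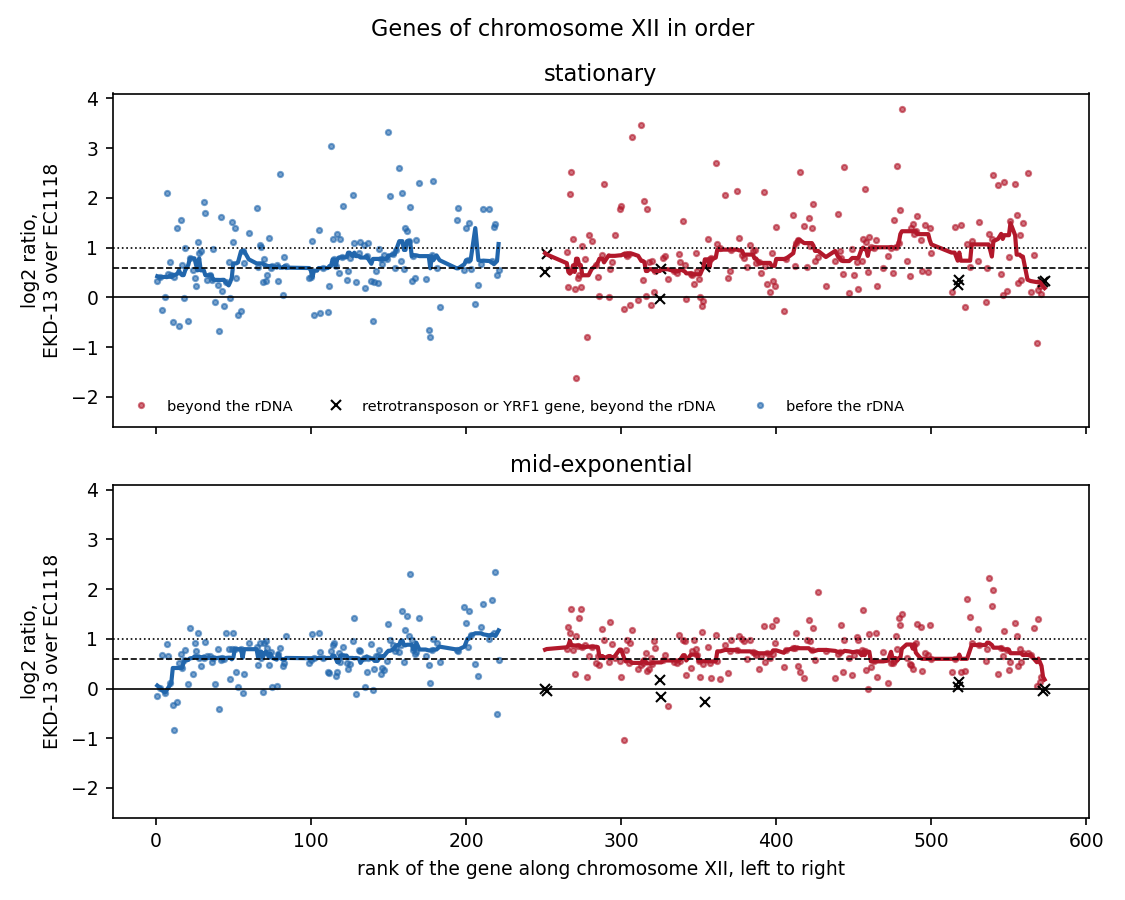
Mean log2 ratio of EKD-13 over EC1118 for each tested gene of chromosome XII, against its rank along the chromosome in the reference, in stationary (top) and mid-exponential phase (bottom). Red points are members, blue points genes before the ribosomal DNA and black crosses retrotransposon or YRF1 genes of the stretch. Thick lines are running medians of 15 genes, and horizontal lines stand at 0, 0.585 (dashed) and 1 (dotted). Both running medians stay above 0 across the stretch and are lowest at its right end.

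The rule cuts the chromosome at the ribosomal DNA, so the genes on both sides of that border are given. The last 5 tested genes before the ribosomal DNA were GID11, STM1, PCD1, YLR152C and the acetyl-CoA synthetase gene ACS2, with stationary means from 0.45 to 1.48 and mid-exponential means from -0.52 to 2.34. The first 5 tested members were the retrotransposon genes YLR157C-B and YLR157C-A, then MAS1, SHH4 and PUS5. MAS1, a subunit of the mitochondrial processing protease, averaged 0.91 ± 0.49 in stationary and 0.79 ± 0.54 in mid-exponential phase (SD, n = 3 each). SHH4, a homologue of a succinate dehydrogenase subunit, averaged 0.20 ± 0.33 (n = 3) and 1.24 ± 0.58 (n = 2). The last 5 were PAU4, YLR462W, YLR464W, YRF1-4 and YRF1-5, with stationary means from 0.06 to 0.33, and mid-exponential means from -0.05 to 0.23 apart from PAU4 at 1.40.

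The size of the shift moved with the brightness of the spots. Tested genes were cut into quartiles by their mean log2 intensity in the authors' deposited table. From the dimmest to the brightest quartile, members stood above the other chromosomes by 1.11 ± 0.30, 1.12 ± 0.37, 0.81 ± 0.15 and 0.43 ± 0.10 in stationary phase (SD, n = 3 arrays). The mid-exponential values were 1.02 ± 0.02, 0.71 ± 0.05, 0.72 ± 0.09 and 0.52 ± 0.16. In the brightest quartile the fold was 1.34 in stationary and 1.43 in mid-exponential phase. In that quartile all 3 stationary arrays lay below the ratio of 3 copies to 2, as did 2 of 3 mid-exponential arrays. In the dimmest quartile the shift was near 1. The authors' deposited table did not show this rise on dim spots. Its member medians, from the dimmest quartile to the brightest, were 0.18, 0.27, 0.32 and 0.28 in stationary phase. The mid-exponential ones were 0.26, 0.38, 0.50 and 0.40, so the dimmest quartile was the lowest in both phases. The part of spot brightness in the spread of members was not tested.

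**Figure D3:**
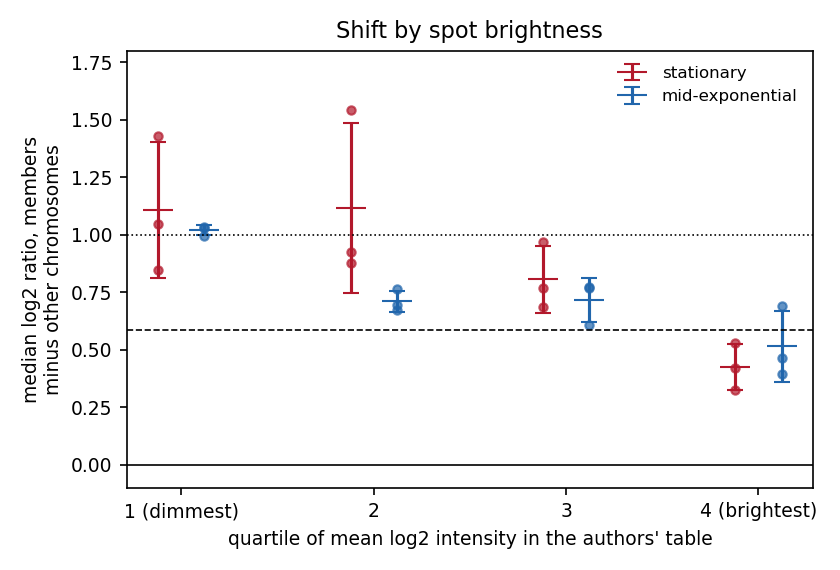
Median log2 ratio of the members minus that of genes on other chromosomes, by quartile of mean log2 intensity in the authors' table, in stationary (red) and mid-exponential phase (blue). Points are single arrays, dashes and bars the mean and SD over 3 arrays, and horizontal lines stand at 0, 0.585 (dashed) and 1 (dotted). In stationary phase the gap is 1.11 in the dimmest and 0.43 in the brightest quartile.

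Repeated elements of the stretch stood near their relatives on other chromosomes. The 7 retrotransposon genes, which encode the coat and polymerase proteins of Ty elements, had a median of 0.51 in stationary phase and -0.00 in mid-exponential phase. The 72 retrotransposon genes tested on other chromosomes had 0.47 and -0.09. YRF1-4 and YRF1-5, copies of the helicase gene of the subtelomeric Y' element, had medians of 0.32 and -0.03, against 0.25 and -0.08 for 6 copies elsewhere. Both families are near-identical between copies, so a spot may report on copies from several chromosomes, and how far it did was not tested. Leaving out the repeats moved the shift to 0.78 in stationary and 0.75 in mid-exponential phase.

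The 4 copies of ASP3, the cell wall asparaginase gene next to the ribosomal DNA, had no ratio on any array. The authors' deposited table lists them between 0.01 and 0.12 in stationary phase and between -0.09 and 0.18 in mid-exponential phase, none past its threshold. Their mean log2 intensity there was 6.36 to 7.01, among the dim genes. The 13 dubious open reading frames tested, had medians of 0.23 and 0.66, against 0.86 and 0.72 for the 147 verified genes.

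Tested gene by gene against 0 with limma (adjusted p under 0.05), 30 of 205 members passed as higher in stationary phase. Of all 4262 genes 3% did. No member passed as lower, where 204 of all genes passed in either direction, 128 of them as higher. In mid-exponential phase 2 members passed, PUN1 and VID22, where 0.164% of all genes did. The region was chosen on this contrast, so nothing is read from these counts. The authors' deposited table called 30 of 321 members higher in stationary phase (2.04% of 6388 genes) and 124 in mid-exponential phase (5.67%). A single member, YLR198C, passed as lower there, in mid-exponential phase (4.63% of all genes passed as lower).

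CDC42, the small GTPase that sets cell polarity, was picked after its values were seen, as a member near the shift. Its ratios were 0.95, 0.72 and 0.81 in stationary phase and 0.65, 0.66 and 0.71 in mid-exponential phase. All 6 values were above 0.585. Its mean was 0.82 ± 0.11 in stationary and 0.67 ± 0.03 in mid-exponential phase (SD, n = 3 each).

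To find genes that left the shift, the median of the members was subtracted from each member on each array, and likewise the median of its own stretch from every other gene, before the limma fit. In stationary phase 5 members then passed as higher, where 1.74% of all genes did, and 0 as lower, where 1.29% did. At an unadjusted p under 0.05 there were 56 members in either direction, 27.3% of members, beside 22.3% of all genes. The 5 were ELO3, SPO77, MMR1, MCM5 and PUS5. The share of members called as higher, 2.44%, was close to that of all genes.

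ELO3, the elongase that makes the longest fatty acids of sphingolipids, had ratios of 2.67, 2.01 and 3.23 in stationary phase, against 0.41, 1.15 and 0.85 in mid-exponential phase. Every stationary value was above every mid-exponential one. It stood 1.92 ± 0.21 (SE) above the shift in stationary phase (limma adjusted p = 0.023) and 0.15 above it in mid-exponential phase. MCM5, a subunit of the helicase that opens replication origins, had 2.43, 2.05 and 1.95 in stationary phase and 0.42, 0.92 and 0.99 in mid-exponential phase. The phases again did not overlap, and MCM5 stood 1.43 ± 0.21 above the stationary shift (limma adjusted p = 0.034). ELO3 and MCM5 were picked as high in stationary phase, which favours such a gap between phases.

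MMR1, which ties mitochondria to the myosin that carries them into the bud, was measured at 2.29 and 2.28 on stationary arrays 1 and 2, against 0.91, 1.12 and 0.90 in mid-exponential phase. SPO77, a gene of spore wall formation, was measured at 2.40 and 2.85 on stationary arrays 1 and 3, against 0.90 and 1.04 on mid-exponential arrays 2 and 3. Both were higher in each stationary measurement than in each mid-exponential one, a gap favoured by picking them as high in stationary phase. MMR1 stood 1.70 ± 0.18 and SPO77 1.81 ± 0.21 (SE) above the stationary shift, with limma adjusted p of 0.033 and 0.036.

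PUS5, a pseudouridine synthase of mitochondrial ribosomal RNA, had 2.13, 1.52 and 2.60 in stationary phase and 1.38, 1.18 and 0.80 in mid-exponential phase. It was 1.37 ± 0.20 (SE) above the stationary shift (limma adjusted p = 0.034). The authors' deposited table lists the 5 genes in stationary phase at 0.65 for ELO3, 0.81 for MCM5, 0.48 for MMR1, 0.29 for SPO77 and 0.36 for PUS5. The median there was 0.19 over all 321 members and 0.27 over the 205 tested ones. The 5 genes were picked as high in the same study, so that table is no separate support. The count of 5 changed with the arrays used. It was 0 without stationary array 1, without any single mid-exponential array and with a dye term. Without stationary array 3 it was 1, and without stationary array 2 it was 14 of 171 members, 9 higher and 5 lower. Of all genes, 129 of 4262 passed with 6 arrays, 21 of 3491 without stationary array 3 and 238 of 3633 without stationary array 2. In the fits where no member passed, 4 to 7 genes did. SPO77 and MMR1 were in the dimmest stationary quartile of intensity, ELO3 and PUS5 in the next and MCM5 in the one above, and the part of brightness in these calls was not tested.

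Below the stationary shift none passed with all 6 arrays, and 5 did without stationary array 2. In that fit 238 of 3633 genes passed in either direction. With all 6 arrays, the 5 with the smallest p were YLR460C, YLR198C, HAP1, YLR227W-B and NDL1, with limma adjusted p from 0.071 to 0.113. HAP1, the haem-responsive activator of respiratory genes, had -0.48, -0.37 and 0.61 in stationary phase and 0.50, 0.47 and 0.53 in mid-exponential phase. Its mid-exponential values lay close together while stationary array 3 stood apart from the other two.

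YLR198C, a dubious open reading frame that overlaps NOP56, was among these 5 in both phases. Its ratios were -0.65, 0.00 and -1.14 in stationary phase and -0.99, -0.88 and -0.79 in mid-exponential phase. The mid-exponential values were all below 0, 1.54 ± 0.29 (SE) under the shift (limma adjusted p = 0.18), and the authors' deposited table lists it there at -0.54 with an adjusted p of 0.016. NOP56, a core protein of the particles that guide ribosomal RNA methylation, had 1.56, -0.22 and 2.44 in stationary and 0.42, 0.55 and 0.86 in mid-exponential phase. The overlapping pair thus stood on opposite sides of 0 on all mid-exponential arrays.

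No member passed the deviation test in mid-exponential phase, where 0.0704% of all genes did (limma), although 38 members had an unadjusted p under 0.05 (18.5% of members, 10.8% of all genes). Above the shift the smallest p belonged to PUN1, SEN1, VID22, TAG1 and LUG1. PUN1, a plasma membrane protein of the cell wall stress response, had 1.25, 0.74 and 1.21 in stationary phase and 1.59, 1.85 and 1.95 in mid-exponential phase. Every mid-exponential value was above every stationary one, a gap favoured by picking the gene as high in mid-exponential phase. It was 1.14 ± 0.16 (SE) above the mid-exponential shift (limma adjusted p = 0.14), and the authors' deposited table lists it at 1.12 in that phase.

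SEN1, the helicase that ends transcription of short noncoding RNAs, had 1.16 and 1.19 on stationary arrays 1 and 2 and 1.53, 1.94 and 1.51 in mid-exponential phase. VID22, a DNA-binding protein with a role in the breakdown of gluconeogenic enzymes, had 1.36, 0.96 and 0.98 in stationary and 1.35, 1.37 and 1.53 in mid-exponential phase. All measured values of both genes were above 0.585. They stood 1.00 ± 0.16 and 0.76 ± 0.18 (SE) above the mid-exponential shift, with limma adjusted p of 0.18 and 0.24. TAG1, which acts in ending autophagy, and LUG1 averaged 1.41 ± 0.16 and 1.58 ± 0.24 in mid-exponential phase (SD, n = 3 each).

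Below the mid-exponential shift the smallest p belonged to YLR198C, the retrotransposon genes YLR227W-A and YLR256W-A, ILV5 and BNA5, with limma adjusted p from 0.18 to 0.28. ILV5, an enzyme of branched-chain amino acid synthesis, had 0.36, 0.05 and 1.12 in stationary phase and -0.05, -0.15 and 0.15 in mid-exponential phase. BNA5, the kynureninase of NAD synthesis, had -0.19, -0.18 and 1.45 in stationary phase and -0.17, -0.40 and -0.47 in mid-exponential phase. In both genes stationary array 3 was the high one. The lowest mid-exponential mean of any member was that of HMX1, the haem oxygenase, a gene chosen after its values were seen. HMX1 had 0.79, -1.92 and 0.41 in stationary phase and 0.48, -2.94 and -0.66 in mid-exponential phase, so that the array with the mutant in Cy3 was the lowest of each phase.

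On the deposited scale the difference in the region's shift between the phases did not pass its test. Stationary minus mid-exponential was 0.044 (exact permutation test over arrays, two-sided p = 0.9, where 3 arrays against 3 cannot go below 0.10). The sign of that difference depended on stationary array 3, without which it was -0.082. With the arrays brought to one spread the shift was 0.59 ± 0.16 in stationary and 0.89 ± 0.05 in mid-exponential phase (SD, n = 3 each), a difference of -0.29 with an exact permutation p of 0.1, the smallest this design allows. Gene by gene, no member passed the limma test of the phase difference (0.117% of all genes did), and 23 members had an unadjusted p under 0.05 (11.2% of members, 12.8% of all genes).

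The same contrast was also fitted with each array's member median removed, where again no member passed and 26 had an unadjusted p under 0.05 (12.7% of members, 13% of all genes). Among the members with the smallest p in that fit, ELO3, MMR1, TSR2, MCM5 and SPO77 were higher in stationary phase, with limma adjusted p of 0.14 to 0.21. TSR2, which acts in the maturation of the small ribosomal subunit, had 2.39 and 2.12 on stationary arrays 1 and 3, against 0.47, 0.01 and 0.42 in mid-exponential phase. Lower in stationary phase in the same fit, with limma adjusted p of 0.22 to 0.28, were PAU4, PUN1, NCW2, PNP1 and TAG1. PAU4, one of the seripauperins that are induced in fermentation, had 0.52, -0.11 and 0.04 in stationary phase, against 1.84, 1.39 and 0.97 in mid-exponential phase. Its near-identical relatives elsewhere in the genome may share its spots.

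NCW2, a cell wall protein, had 0.29, 0.53 and 0.88 in stationary phase, against 1.54, 1.52 and 0.97 in mid-exponential phase. PNP1, the purine nucleoside phosphorylase, had -0.20, 0.08 and -0.34 in stationary phase, against 0.93, 1.42 and 0.41 in mid-exponential phase. In both genes every stationary value lay below every mid-exponential one. They were picked by their phase difference, so this adds nothing to it. PNP1 stood near 0 in stationary phase while the region around it was high.

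Members were then grouped by role in 13 lists that hold 158 genes. A list is described by its median over tested members, to be read beside the member medians of 0.78 in stationary and 0.70 in mid-exponential phase, and -0.02 and -0.01 over all genes. "Rose" means past the limma test against 0, a contrast on which the region was chosen. As the share behind the list counts, limma called 3% of all genes and 14.6% of members higher in stationary phase, and 0.164% and 0.976% in mid-exponential phase. The authors' deposited table called 2.04% of all genes and 9.35% of members higher in stationary phase, and 5.67% and 38.6% in mid-exponential phase.

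The 12 tested cytosolic ribosomal protein genes had a median of 0.73 in stationary phase and 0.36 in mid-exponential phase, and all 12 were above 0 in both. In the authors' deposited table the list's medians were 0.39 in stationary and 0.32 in mid-exponential phase, beside 0.19 and 0.32 over all 321 members. In stationary phase 3 of 12 rose by limma and 7 of 13 in the authors' deposited table, where 14.6% and 9.35% of all members did. In mid-exponential phase 0 of 12 and 4 of 13 did, beside 0.976% and 38.6% of all members. RPS31, which encodes a fusion of ubiquitin and a small subunit protein, had 1.23, 0.95 and 1.34 in stationary and 0.67, 0.61 and 1.03 in mid-exponential phase. RPS30A averaged 0.69 ± 0.16 and 0.68 ± 0.16 (SD, n = 3 each). RPP0, the stalk protein, averaged 0.47 ± 0.50 and 0.33 ± 0.14, and RPL6B 0.28 ± 0.16 and 0.46 ± 0.24, the 2 lowest of the list over the 6 arrays.

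Ribosome biogenesis genes, 10 tested, had medians of 1.09 and 0.61. The stationary arrays disagreed, with list medians of 1.15, -0.22 and 1.58 on arrays 1, 2 and 3, whereas the mid-exponential ones were 0.51, 0.63 and 0.56. TSR2 rose in stationary phase, and the authors' deposited table called 0 of 15 in stationary and 8 of 15 in mid-exponential phase. REH1, which acts in the assembly of the large subunit, averaged 1.15 ± 0.22 (SD, n = 2) in stationary and 1.23 ± 0.41 (n = 3) in mid-exponential phase. EMG1, a methyltransferase of the small subunit, averaged 0.41 ± 0.82 and 0.65 ± 0.26. IFH1, a coactivator of ribosomal protein genes, had -0.17, -0.28 and 0.01 in stationary and 0.20, 1.92 and -0.27 in mid-exponential phase.

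Cell wall genes, 8 tested, had medians of 0.54 in stationary and 0.82 in mid-exponential phase, and 7 of 8 and 8 of 8 were above 0. PUN1 rose in both phases by limma. The authors' deposited table called 1 of 13 in stationary and 7 of 13 in mid-exponential phase, where it called 9.35% and 38.6% of all members. ROM2, an exchange factor that activates Rho1 in the cell wall integrity pathway, averaged 1.01 ± 0.64 in stationary and 1.05 ± 0.48 in mid-exponential phase (SD, n = 3 each). TUS1, another exchange factor for Rho1, had -0.28, 0.13 and -0.15 in stationary phase and -0.40, 2.02 and 0.03 in mid-exponential phase, where array 2 alone was high. GAS2, a glucan-remodelling enzyme of the spore wall, averaged 0.10 ± 0.65 (n = 3) and 0.61 ± 0.05 (n = 2).

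Secretion and vesicle traffic genes, 13 tested, had medians of 0.88 and 1.06. None rose by limma, while the authors' deposited table called 3 of 15 in stationary and 13 of 15 in mid-exponential phase (9.35% and 38.6% of all members). YPT6, a Rab GTPase of the Golgi, had 1.95, 1.06 and 5.10 in stationary and 0.81, 1.22 and 1.22 in mid-exponential phase. SEC10, a subunit of the exocyst, had 1.70, 1.35 and 4.52 in stationary and 1.42, 1.30 and 2.09 in mid-exponential phase. Stationary array 3 held the extreme value of both. SEC22, a SNARE between endoplasmic reticulum and Golgi, averaged 0.39 ± 0.94 (SD, n = 2) and 0.31 ± 0.08 (n = 3), and APS1, an adaptor subunit, had 1.36 and -4.59 on stationary arrays 2 and 3.

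Cell cycle and chromosome genes, 12 tested, had the highest list median of the 11 lists plotted in stationary phase, 1.34. Their mid-exponential median was 0.85. The authors' deposited table did not give this ranking. There the list's stationary median was 0.20, beside 0.19 for all members, and 2 of 23 were called higher. The highest list there was that of cytosolic ribosomal proteins, at 0.39. All 12 were above 0 in both phases, and 4 rose by limma in stationary phase, CDC42, MCM5, MMS22 and SIR3. The stationary list median was 1.53, 0.78 and 1.95 on arrays 1, 2 and 3, so array 2 stood below the other two. PSY3, of a complex for recombination repair, had 2.14 and 5.44 on stationary arrays 1 and 2, and 1.33, 1.97 and 1.23 in mid-exponential phase. CLB4, a B-type cyclin, had 1.72 and 4.75 on stationary arrays 1 and 3. At the low end DIF1, a regulator of ribonucleotide reductase, averaged 0.47 ± 0.29 (SD, n = 2) in stationary phase, and CDC25, the exchange factor of Ras, 0.63 ± 0.30 (n = 3).

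Transcription factor and chromatin genes, 11 tested, had medians of 1.04 and 0.82, and 3 rose in stationary phase, PDR8, STP3 and SWC7. STP3, a zinc finger protein, had 0.96, 1.72 and 2.61 in stationary and 0.88, 1.39 and 1.55 in mid-exponential phase. SWC7, of the complex that installs the histone variant H2A.Z, averaged 1.64 ± 0.75 (SD, n = 2) and 1.29 ± 0.08 (n = 3). The authors' deposited table lists STP3 at 0.74 in stationary and 1.04 in mid-exponential phase. HAP1 and IFH1 were the 2 lowest of the list.

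Autophagy genes, 6 tested, had medians of 1.13 in stationary and 1.12 in mid-exponential phase, and 6 of 6 lay above the member median in both. The authors' deposited table did not set the list as far apart, with medians of 0.25 and 0.39. All members had 0.19 and 0.32 there, and the tested members 0.27 and 0.39. In stationary phase 2 rose by limma, while the authors' deposited table called 0 of 8 in stationary and 4 of 8 in mid-exponential phase. ATG23, which acts in the delivery of membrane to the autophagosome, had 2.17 and 2.74 on stationary arrays 1 and 3 and 1.45, 1.55 and 2.93 in mid-exponential phase. ATG33, needed for the breakdown of mitochondria, averaged 1.22 ± 1.08 and 1.09 ± 0.22. VPS34, the phosphatidylinositol 3-kinase, averaged 0.87 ± 0.44 and 1.08 ± 0.10 (SD, n = 3 each), and ATG26, a sterol glucosyltransferase, 0.85 ± 0.18 (n = 2) and 1.20 ± 0.51 (n = 3).

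Genes of mitochondrial function, 19 tested, had medians of 0.54 in stationary and 0.54 in mid-exponential phase, and all 19 were above 0 in both. COQ9, of coenzyme Q synthesis, had 0.55, 1.15 and 3.61 in stationary and 0.53, 0.51 and 0.60 in mid-exponential phase. UPS1 and UPS2, phospholipid carriers of the mitochondrial intermembrane space, were the 2 lowest, with stationary means of 0.01 ± 0.50 and 0.17 ± 0.86 (SD, n = 3 each). Their mid-exponential means were 0.54 ± 0.50 and 0.30 ± 0.33.

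Carbon and lipid genes, 9 tested, had medians of 0.77 and 0.58, with ELO3 and ATG26 at the top. ACO1, the aconitase, had -1.15 and 0.60 on stationary arrays 1 and 2 and 0.41, 0.65 and 0.27 in mid-exponential phase. HMG2, a hydroxymethylglutaryl-CoA reductase, averaged 0.36 ± 0.26 and 0.53 ± 0.22 (SD, n = 3 each). The 8 tested genes of amino acid and nucleotide metabolism had medians of 0.35 and 0.60, and 6 of 8 were above 0 in each phase. LEU3, the regulator of leucine synthesis, averaged 1.49 ± 0.78 and 0.71 ± 0.31 (n = 3 each), and ADE13, of adenine synthesis, 1.00 ± 0.17 (n = 2) and 0.55 ± 0.29 (n = 3). BNA5 and CDD1, a cytidine deaminase, were the lowest, CDD1 with -1.27, 1.47 and -0.33 in stationary and -0.01, 1.31 and -0.46 in mid-exponential phase, highest on the Cy3 array of each.

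The 6 tested repeated genes of the right end had medians of 0.19 and 0.13, and in stationary phase none of the 6 lay above the member median. PAU4 and YLR462W were the highest of them over the 6 arrays, YRF1-4 and YLR465C the lowest. YLR462W, of unknown function, had -0.05, 1.01 and -0.30 in stationary and 0.08, 0.40 and -0.10 in mid-exponential phase. Of 4 listed mating genes 1 was tested: STE23, a protease that matures the a-factor pheromone, had 0.59, 1.68 and 2.08 in stationary and 0.65, 0.62 and 0.89 in mid-exponential phase, and rose in stationary phase by limma (adjusted p = 0.046).

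**Figure D4:**
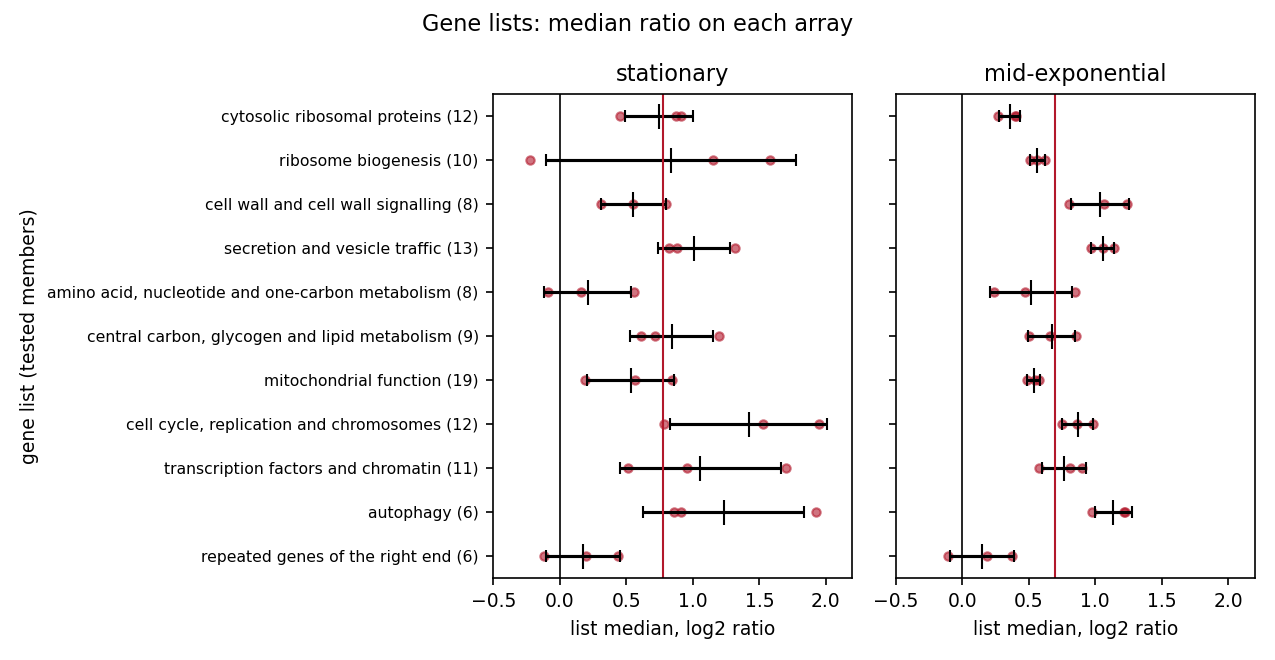
Median log2 ratio of EKD-13 over EC1118 for each gene list with at least 3 tested members, in stationary (left) and mid-exponential phase (right). Red points are the list's medians on single arrays, black bars their mean and SD, and the red line the median of all tested members (0.78 and 0.70). The repeated genes of the right end are nearest to 0, with list medians of 0.19 and 0.13.

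Paralogues offer a comparison within gene families, since they place a member beside a related gene on another chromosome. Of 36 pairs listed, 24 had both genes tested. The member was the higher one in 21 of 24 pairs in stationary phase and 18 of 24 in mid-exponential phase, by a median of 0.50 and 0.27. The region was chosen as high, so these counts are a description. In the 15 pairs outside the ribosomal proteins, the median difference was 0.84 and 0.49, the members' medians being 0.81 and 0.78 and their partners' -0.17 and 0.10.

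The 9 ribosomal protein pairs differed by a median of 0.07 in stationary and 0.02 in mid-exponential phase. The members' medians were 0.72 and 0.36, and their partners on other chromosomes stood nearly as high, at 0.64 and 0.30. RPS1A had 0.82 ± 0.05 in stationary and 0.36 ± 0.17 in mid-exponential phase, against 0.75 ± 0.39 and 0.55 ± 0.21 for RPS1B (SD, n = 3 each). RPS30A was below RPS30B, at 0.69 ± 0.16 against 1.26 ± 0.36 in stationary phase and 0.68 ± 0.16 against 0.71 ± 0.12 in mid-exponential phase. RPS29A and RPS29B were at 0.53 ± 0.24 and 0.64 ± 0.41 in stationary phase and at 0.36 ± 0.04 and 0.25 ± 0.06 in mid-exponential phase. Ribosomal protein paralogues can be near-identical in sequence, and sharing of signal between their spots was not tested.

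At the other end stood 4 pairs in which the member was furthest above its partner. The partners NQM1 and STF2 were low, while the means of CLB3 and STP4 lay between -0.27 and 0.04. TAL1, the transaldolase of the pentose phosphate pathway, averaged 1.11 ± 0.79 (SD, n = 2) in stationary and 0.38 ± 0.10 (n = 3) in mid-exponential phase, against -2.21 ± 2.00 and -2.26 ± 1.44 (n = 3 each) for NQM1. TMA10, a ribosome-associated protein, averaged 0.81 ± 0.26 (n = 2) and 1.94 ± 0.80 (n = 3), against -1.75 ± 1.07 and -0.73 ± 0.33 (n = 3 each) for STF2. CLB4 averaged 3.23 ± 2.14 (n = 2) and 1.17 ± 0.56 (n = 3), against -0.27 ± 0.69 and -0.04 ± 0.08 for the cyclin CLB3. STP3 averaged 1.76 ± 0.83 and 1.27 ± 0.35 (n = 3 each), against 0.04 ± 0.43 (n = 2) and -0.16 ± 0.66 (n = 3) for STP4. In these 4 pairs the member was the higher gene on all 5 arrays that measured both. THI7, a thiamine transporter, was the member furthest below its partner over the arrays, at 0.52 ± 0.28 and 0.53 ± 0.12 against 1.35 ± 0.10 and 0.35 ± 0.58 for THI72.

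**Figure D5:**
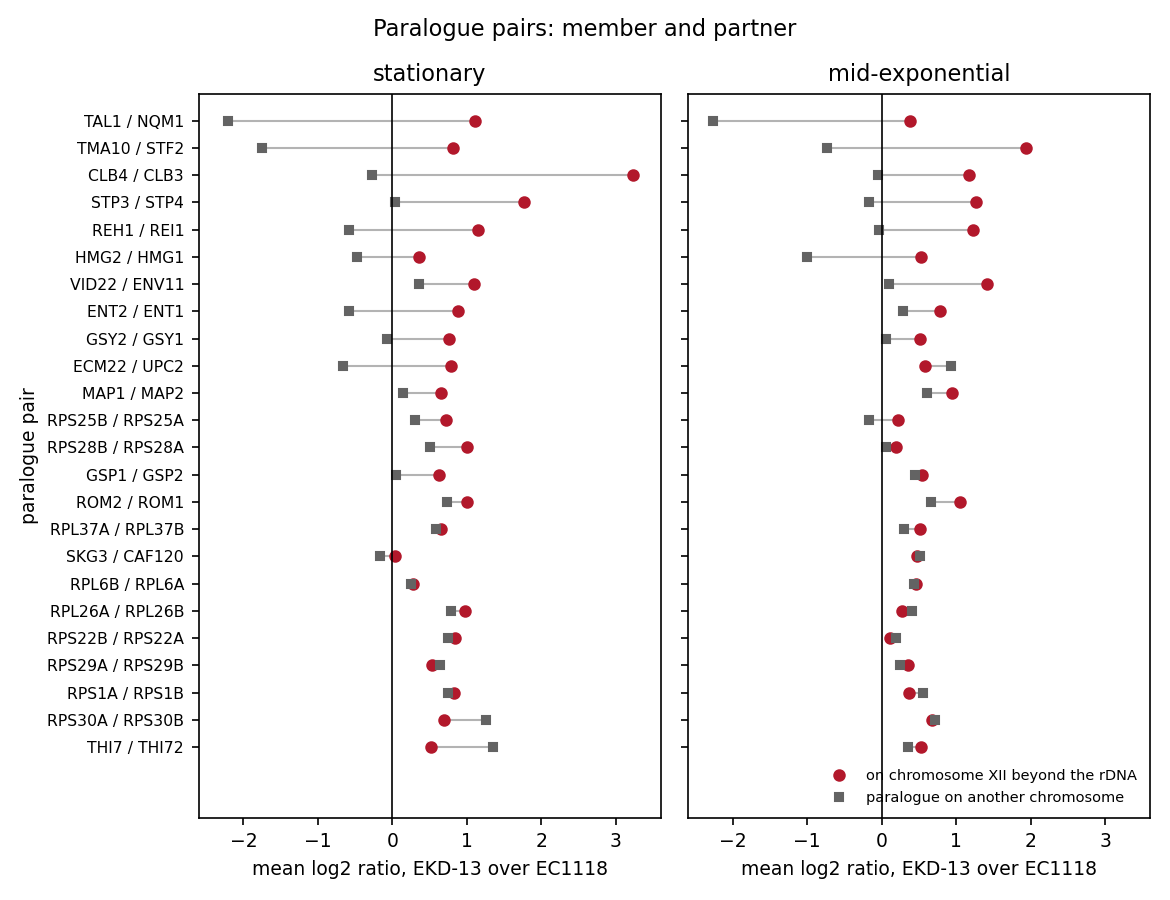
Mean log2 ratio of EKD-13 over EC1118 for the 24 paralogue pairs with both genes tested, in stationary (left) and mid-exponential phase (right), ordered by the mean difference over arrays. Red circles are the members beyond the ribosomal DNA, grey squares their paralogues on other chromosomes, and a line joins a pair. The member lies to the right of its partner in 21 pairs in stationary and 18 in mid-exponential phase.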

How the data were processed

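The authors deposited log2 ratios of single spots for each array. Per the file headers, their limma tables hold for each phase the log2 fold change and mean intensity of a gene, its moderated t (a score) and its raw and adjusted p-value. For stationary phase the authors also deposited a linear fold change (FC) as a ratio. R 2.9.2 and limma are named in the submitters' processing notes. How background was corrected, ratios normalized and weak spots dropped is not given in the sources used here. The deposited log2 ratios had medians per array of -0.027 to 0.019, and paired spots correlated at 0.713 to 0.869 (r across genes).

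Spots took gene names through their plate wells, and the spots of a gene were averaged with no pseudocount and no scaling. Row E wells on plates 10 to 19 matched the authors' table badly and were left out. Across genes above the median of mean log2 intensity, their r was 0.277 in stationary and 0.401 in mid-exponential phase. For other wells it was 0.814 and 0.969, over the same brighter genes. Dimmer genes were not checked in this way. Of the members, 287 matched a locus tag of the RefSeq annotation R64, which gave their symbol and order. The other 34 kept the name in the files. Coordinates and sequences are not reported, since no source used here names the build behind the files.

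limma 3.58.1 in R 4.3.3 fitted 1 model to the 6 arrays with a mean per phase, over the 4262 genes measured on 2 or more arrays in both phases (4 residual and 2.28 prior degrees of freedom). The p-values were two-sided and adjusted over all genes tested (Benjamini-Hochberg), with a threshold of 0.05. The fit was run on the ratios, on ratios with each array's median of the gene's own stretch subtracted, and for stationary minus mid-exponential phase. The mid-exponential deviation fit was also run on simulated data, with changes larger than any deviation called in a member. That run does not show how the fits do at the sizes called here. Tables and plots used Python 3.11.15, pandas 2.3.3, numpy 2.4.6, scipy 1.17.1 and matplotlib 3.10.9.

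The labels name a separate vessel of each strain for each array of a phase, while several vessels served in both phases. Mutant F14 and F24 and wild-type F22 and F21 did so, so the phases are not fully independent. Stationary array 2 joined vessels of different fermentation sets. Same-numbered arrays, each less its phase mean, correlated across genes at 0.087, 0.213 and -0.059, so the array numbers were not taken to pair the phases.

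The members, the gene lists and the paralogue pairs were chosen with earlier results of these data known. Named genes are those past the deviation test or, where fewer than 5 of a direction passed, the 5 with the smallest p, the 2 highest and 2 lowest of each list over the 6 arrays, the 5 at each border, the 4 paralogue pairs with the largest and the 4 with the smallest difference, and the 5 of each direction in the phase difference with the member median removed. A few others are marked as picked after their values were seen. Alternatives left out each array, brought arrays to one spread, changed the filters on ratios, wells, spots and intensity, and added a dye term or a replicate block.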

Additional observations from a re-analysis of the deposited data

Results flagged for a closer look

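YLR256W-A, a retrotransposon gene next to HAP1, had ratios of 0.03, 1.04 and 0.74 in stationary phase, all above 0, and -0.35, -0.39 and -0.09 in mid-exponential phase, all below 0. It was singled out because its arrays moved in opposite directions in the 2 phases. Retrotransposon genes as a class had medians of 0.51 in stationary and -0.00 in mid-exponential phase for the 7 members, and 0.47 and -0.09 for 72 on other chromosomes. For YLR256W-A, stationary minus mid-exponential was 0.88 ± 0.31 (SE), with a limma adjusted p of 0.32, so the difference did not pass the test. The element is repeated in the genome, and the part of its other copies in these values was not tested. The groups of 3 arrays were too small to examine single arrays as outliers.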

How the results depend on the processing

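The region's shift was positive in both phases under each alternative. Leaving out each array in turn gave 0.62 to 0.81 in stationary and 0.65 to 0.74 in mid-exponential phase. Bringing the arrays to one spread moved the mid-exponential shift to 0.89. The authors' deposited table gave 0.19 in stationary and 0.35 in mid-exponential phase, over all 321 members. For the 205 tested members alone its medians were 0.27 and 0.39. The tested genes of other chromosomes had -0.01 and -0.04 there. The cause of the smaller sizes in that table was not tested. The difference between the phases, 0.044, ran from -0.082 to 0.14 with an array left out. It turned to -0.082 without stationary array 3, to -0.29 with one spread (exact permutation p = 0.1) and to -0.16 in the authors' deposited table, and the cause was not tested. With the replicate block it was 0.044 (exact paired permutation test, p = 0.75, where 3 pairs cannot go below 0.25), and 0 members passed the limma phase difference, as without it and with any array left out (0 to 0). The block, added after seeing the data for the other counts, left 0 members past the test against 0 in stationary (30 without it) and in mid-exponential phase (2 without it), and 0 past the stationary deviation test (5 without it). With the block 0 of all 4262 genes passed those tests. Several vessels served in both phases, but same-numbered arrays did not all correlate best with each other. Also added after seeing the data, the 2 alternatives without repeats and with verified genes alone left the shift within its SD.

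Counts of members past a test moved more. In stationary phase 30 members passed against 0, 0 to 58 with an array left out, 3 with one spread and 8 with a dye term. Over all genes 204 of 4262 passed, and 386 of 3633 without stationary array 2, the fit with 58 members. With one spread 30 of 4262 genes passed, and with a dye term 73. In mid-exponential phase 2 passed, 0 to 4 with an array left out, 43 with one spread, 1 with the median of at least 2 spots, 0 with a dye term, 6 in the upper 50% of intensity and 125 of either direction in the authors' deposited table. From the stationary shift 5 members deviated, 0 to 14 with an array left out, 0 with one spread and 0 with a dye term. With a ratio on at least 1 array of each phase 8 did. Over all genes 129 of 4262 deviated, and 238 of 3633 without stationary array 2, the fit with 14 members. With one spread 12 of 4262 genes did, with a dye term 6, and with a ratio on at least 1 array of each phase 221 of 5070. From the mid-exponential shift 0 members deviated, 0 to 0 with an array left out and 3 with one spread. Over all 4262 genes 3 deviated in that phase, and 27 with one spread. Fits with an array left out, a block or a dye term have fewer residual degrees of freedom. Ratios of dim genes are sparse on the stationary arrays, which limits what can be said of the 116 members not tested.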

Other observations

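Several members that passed against 0 in stationary phase belong to none of the lists or lie outside the named genes. They were picked after their values were seen, on the contrast that chose the region, and are given as values. VMA6, a subunit of the vacuolar proton pump, had 1.55, 1.74 and 1.69 in stationary phase and 0.71, 1.02 and 1.45 in mid-exponential phase, so its stationary arrays lay close together and above the mid-exponential ones. ARC18, a subunit of the Arp2/3 complex that nucleates actin, had 2.51, 0.89 and 1.25 in stationary and 0.39, 0.57 and 0.73 in mid-exponential phase. SIR3, a silencing protein of telomeres and mating-type loci, had 1.43, 0.98 and 2.21 in stationary and 0.21, 0.53 and 0.87 in mid-exponential phase. In all 3 genes every stationary value was above every mid-exponential one. Picking members high in stationary phase favours such a gap, so nothing is read from it. How many genes have phases apart in this way was not counted. The unadjusted limma p of the phase difference was under 0.05 for 11.2% of members and 12.8% of all genes.

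IKI3, a subunit of the Elongator complex that modifies transfer RNA, averaged 1.33 ± 0.53 in stationary and 0.92 ± 0.21 in mid-exponential phase (SD, n = 3 each). ATG39, a receptor for autophagy of the nuclear envelope, averaged 1.09 ± 0.31 and 1.12 ± 0.35 (n = 3 each). TFS1, an inhibitor of carboxypeptidase Y, was among the members below 0 in stationary phase, with -2.02, 0.31 and -0.67, against 0.18, 0.46 and 0.03 in mid-exponential phase.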
